A study of Homo sapiens with 14 samples.

Results

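The genes described here are 8 amino acid transporters of the plasma membrane, SLC7A5, SLC3A2, SLC7A1, SLC1A4, SLC1A5, SLC38A1, SLC38A2 and SLC6A9. They were chosen by name, with earlier results of these data known. For each gene the values are those of 1 probe set, the one with the highest mean over all 14 arrays among the probe sets that the platform annotation assigns to exactly 1 gene. All 8 genes had such a probe set, out of 18129 genes with one, and all 8 were bright enough to be among the 10877 genes tested. They hold 37 probe sets in all.

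The arrays read PANC-1 cells, an established human pancreatic carcinoma line, in 4 groups. Treatment lasted 48 h in every group and followed 24 h of starvation in 1% serum of cells grown in 10% serum. The control group (4 arrays) received vehicle per the treatment protocol, though its own label lists no agent, the TGFb1 group (4 arrays) received TGFb1 at 5 ng/ml, and the other groups received TGFb1 at 5 ng/ml with acriflavine at 2.5 µM (3 arrays) or with sodium valproate at 2 mM (3 arrays). Both compounds were added, per the same protocol, as inhibitors of the epithelial-mesenchymal transition that TGFb1 induces. Both were read only together with TGFb1, since a further group with acriflavine alone was not analysed here. Replicates are biological per the labels, and only the control and TGFb1 groups have a replicate 4. The labels do not say how the cultures were separated, so p-values measure the spread between these samples. TGFb1 is a cytokine, valproate inhibits histone deacetylases, and acriflavine is an acridine preparation that can bind DNA.

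Mammalian cells take up amino acids through families of solute carriers that differ in substrate and in driving force. SLC38A1, SLC38A2 and SLC6A9 are driven by the sodium gradient and accumulate amino acids, SLC1A4 and SLC1A5 exchange neutral amino acids across the membrane, and SLC7A5, held in the membrane by its heavy chain SLC3A2, trades amino acids such as glutamine from inside for leucine and other large neutral ones from outside. SLC7A1 brings in arginine and lysine. Transcription of several of these genes is known to rise through the transcription factor ATF4 when amino acids run short, and leucine and arginine in turn activate the growth kinase complex mTORC1. Pancreatic carcinoma cells are known for a high demand for glutamine.

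Values are log2 intensities, a change is a difference of group means on that scale, and a gene is said to have risen or fallen where limma's Benjamini-Hochberg adjusted p, taken over all genes tested, was below 0.05. The medians of the arrays lay between 7.16 and 7.21. All 10 ductal epithelial markers had means over all 14 arrays above the brightness limit of 6.89, among them KRT8 at 12.8 to 14.1. The lowest group mean of a ductal marker was under that limit in control (6.26) and with TGFb1 (6.58). It was 7.67 with acriflavine and 7.22 with valproate. Of the markers of other cell types, 2 of 9 leukocyte markers (CD68 and TYROBP), 3 of 10 endothelial (TIE1, EGFL7 and ESAM) and 2 of 10 hepatocyte markers (APOA1 and TTR) had means above it. The highest group mean of a gene in these lists was 9.40, 9.60 and 7.64, each in the valproate group. The mean of each of these lists over its genes ran from 5.85 to 6.10, 6.29 to 6.76 and 5.29 to 5.66 over the arrays. The defining genes PTPRC, PECAM1, CDH5 and ALB were below the limit on every array, at 3.63 to 6.34. The array of TGFb1 replicate 4 stood furthest from its group. The SD over genes of its deviations from the group mean was 0.375, against 0.256 for TGFb1 replicate 2, 0.250 for control replicate 4 and 0.0665 to 0.160 for the others. Where a transporter's call changed without TGFb1 replicate 4, both values are given.

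The promoters of these transporters were searched for 3 motifs because ATF4 and MYC, known regulators of amino acid transport, bind such sequences. The letters were TGATGNAA, the core of the amino acid response element bound by ATF4 with a C/EBP partner, CACGTG, the E-box bound by MYC, and TGACGTCA, the cAMP response element. Both strands were read in RefSeq windows (GRCh38.p14) from 250 bases before to 50 bases after each annotated start, 14 windows for the 8 genes. TGATGNAA was present in 5 of the 14 windows, in 1 window each of 5 genes, and in 3.62% of all 35116 windows of the table. CACGTG was present in 2 of the 14 windows and in 7.26% of all windows. TGACGTCA was present in 0 of the 14 windows and in 1.85% of all. Each window with a match held 1 match of 1 motif, so that matches did not overlap. The matched stretches are shown in the direction of transcription, with the motif in capitals, so that they can be set beside the changes of each gene.
SLC7A1, chr13:29595663-29595692, minus strand: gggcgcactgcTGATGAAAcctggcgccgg
SLC3A2, chr11:62881719-62881748, plus strand: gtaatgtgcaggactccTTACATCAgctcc
SLC1A4, chr2:64989381-64989410, plus strand: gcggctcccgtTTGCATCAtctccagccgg
SLC1A5, chr19:46784893-46784922, minus strand: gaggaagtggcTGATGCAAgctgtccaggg
SLC38A1, chr12:46266502-46266531, minus strand: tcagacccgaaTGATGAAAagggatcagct
SLC7A5, chr16:87869620-87869649, minus strand: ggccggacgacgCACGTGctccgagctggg
SLC1A5, chr19:46787326-46787355, minus strand: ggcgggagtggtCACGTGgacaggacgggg
The matches of SLC3A2 and SLC1A4 read the motif on the opposite strand. Counted from the first transcribed base as position 0, the matches of TGATGNAA began at 7 in SLC7A1, 37 in SLC3A2, -7 in SLC1A4, -97 in SLC1A5 and -4 in SLC38A1. Those of CACGTG began at -130 in SLC7A5 and -50 in SLC1A5, the latter at another annotated start than its TGATGNAA. The windows of SLC38A2 and SLC6A9 held none of the 3 strings, which says nothing about sites outside them. A match is a description and not a shown binding site.

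The promoter of SLC7A5, among the transporters with the largest falls under acriflavine, is given whole for the 250 bases before its start (chr16:87869508-87869757, minus strand), with the E-box in capitals. It was 79.6% G and C.
SLC7A5: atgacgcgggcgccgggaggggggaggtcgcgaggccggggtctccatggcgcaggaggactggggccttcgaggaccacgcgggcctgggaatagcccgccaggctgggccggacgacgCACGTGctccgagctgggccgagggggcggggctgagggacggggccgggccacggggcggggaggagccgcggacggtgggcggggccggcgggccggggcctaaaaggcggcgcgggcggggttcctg

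The transporters were lowest in the cells that received acriflavine with TGFb1. Against TGFb1 alone, 7 of the 8 fell, by 0.52 to 1.64 on the log2 scale, beside 19.1% of all genes tested that fell, 24.5% that rose and 43.6% that passed in either direction. The median change of the 8 was -0.85, against 0.03 for all genes tested. The 8 were chosen with earlier results of these data known, so setting them beside all genes is a description and not a test. SLC1A5 was the exception, at -0.60 ± 0.241 (SE) with an adjusted p of 0.0571. Without TGFb1 replicate 4, all 8 fell, beside 22.2% of all genes tested, and SLC1A5 had a change of -0.87 with an adjusted p of 0.000439. In these bulk samples, less RNA per cell and fewer cells that carry it cannot be told apart.

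**Figure D1:**
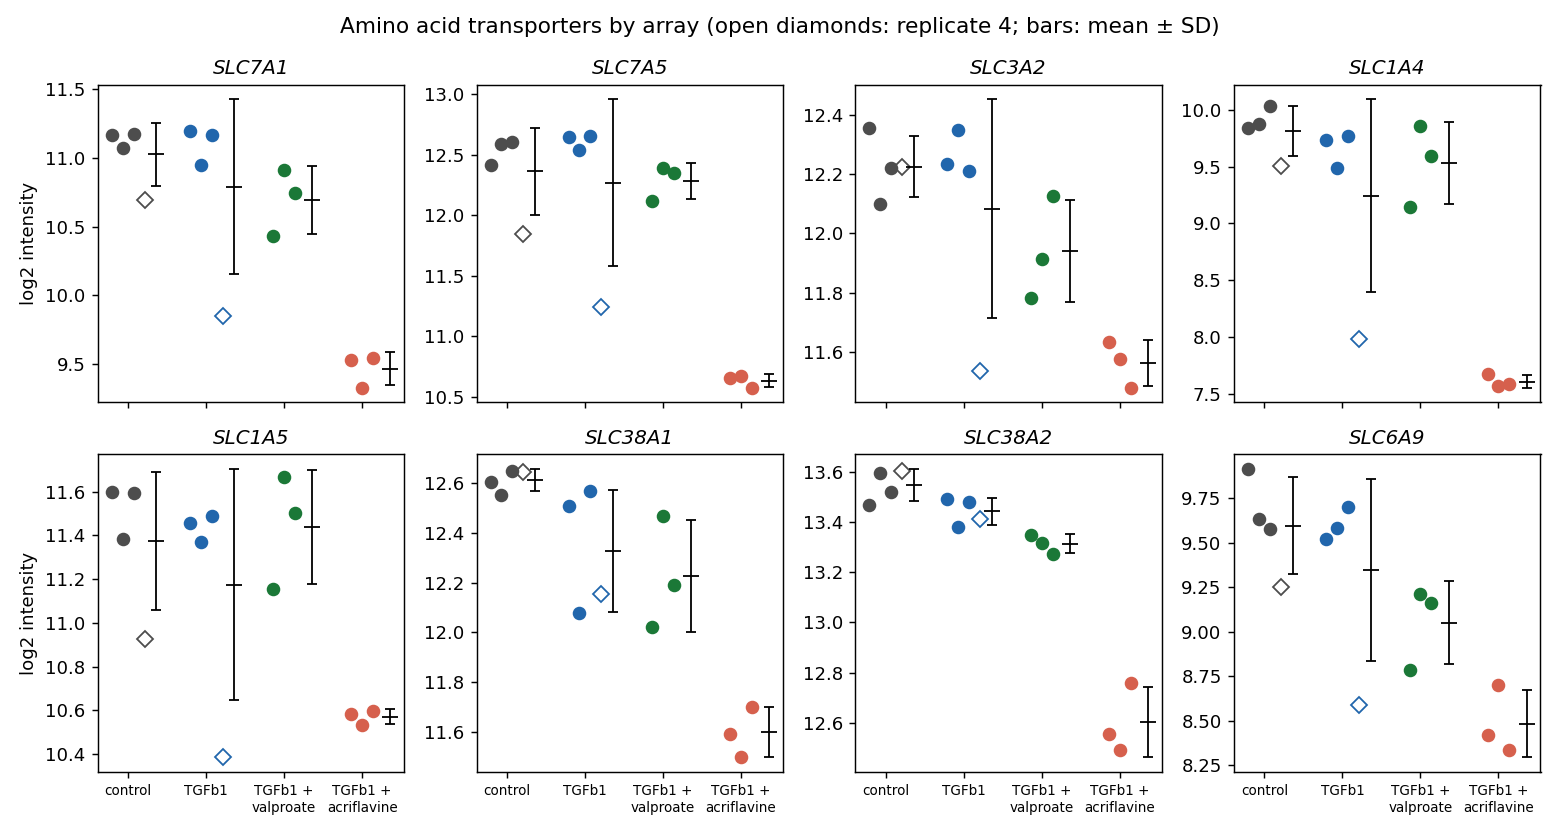
Log2 intensity of the 8 transporters (y axis, own scale in each panel) on each of the 14 arrays by treatment group, with replicate 4 as an open diamond and the group mean ± SD beside the points. The 3 acriflavine arrays lie below all valproate and control arrays in every panel, and TGFb1 replicate 4 is the lowest TGFb1 array in 6 panels, those other than SLC38A1 and SLC38A2.

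SLC7A5, the light chain of the large neutral amino acid exchanger, read 12.41, 12.59, 12.60 and 11.84 in control arrays 1 to 4. It read 12.65, 12.54, 12.65 and 11.24 in TGFb1 arrays 1 to 4. It read 10.66, 10.67 and 10.57 in the acriflavine arrays and 12.12, 12.39 and 12.35 in the valproate arrays. The acriflavine arrays were below every other array, and the replicates 4 of control and TGFb1 were the lowest of the rest. The change against TGFb1 was -1.64 ± 0.288 (SE), a 3.11-fold fall (adjusted p = 0.000436). Without both replicates 4 it was -1.98 (adjusted p = 1.17e-09).

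SLC3A2, the glycoprotein heavy chain that brings SLC7A5 to the cell surface, moved less than its partner. It read 12.35, 12.10, 12.22 and 12.22 in the control arrays and 12.23, 12.35, 12.21 and 11.54 in the TGFb1 arrays. The acriflavine arrays read 11.63, 11.58 and 11.48, and the valproate arrays 11.78, 11.91 and 12.12. TGFb1 replicate 4 lay among the acriflavine arrays, while the other 3 TGFb1 arrays were above them all. The change with acriflavine was -0.52 ± 0.159 (1.43-fold, adjusted p = 0.0168), and -0.70 (adjusted p = 2.98e-05) without both replicates 4. It did not pass without acriflavine replicate 3, where the change was -0.48 (adjusted p = 0.0623), or in a fit of both groups alone (adjusted p = 0.0651).

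SLC7A1, the transporter of arginine and lysine, read 11.17, 11.07, 11.18 and 10.69 in the control arrays and 11.20, 10.95, 11.16 and 9.85 in the TGFb1 arrays. It read 9.53, 9.33 and 9.54 with acriflavine and 10.43, 10.91 and 10.74 with valproate. The acriflavine arrays did not overlap any other group. The change against TGFb1 was -1.32 ± 0.262 (2.50-fold, adjusted p = 0.00106), and -1.64 (adjusted p = 8.07e-08) without both replicates 4.

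SLC1A4, an exchanger of alanine, serine and cysteine, had the largest range of the 8 over the arrays, 2.47. It read 9.84, 9.87, 10.03 and 9.51 in the control arrays and 9.74, 9.49, 9.77 and 7.98 in the TGFb1 arrays. The acriflavine arrays read 7.67, 7.57 and 7.58 and the valproate arrays 9.14, 9.86 and 9.59. TGFb1 replicate 4 was far closer to the acriflavine arrays than to the TGFb1 arrays 1 to 3, though still above them. The change against TGFb1 was -1.64 ± 0.338 (3.12-fold, adjusted p = 0.00142), and -2.06 (adjusted p = 7.66e-08) without both replicates 4.

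SLC1A5, the related exchanger of glutamine and other neutral amino acids, read 11.60, 11.38, 11.59 and 10.93 in the control arrays. It read 11.46, 11.37, 11.49 and 10.39 in the TGFb1 arrays. The acriflavine arrays read 10.58, 10.53 and 10.60, and the valproate arrays 11.15, 11.66 and 11.50. TGFb1 replicate 4 was below all 3 acriflavine arrays, and the other TGFb1 arrays were above them. Besides the array of TGFb1 replicate 4, that of control replicate 4 also decided the call against TGFb1, since without it the change of -0.60 had an adjusted p of 0.0417.

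SLC38A1, a sodium-coupled transporter of glutamine, read 12.60, 12.55, 12.65 and 12.64 in the control arrays and 12.51, 12.08, 12.57 and 12.15 in the TGFb1 arrays. It read 11.59, 11.50 and 11.70 with acriflavine and 12.02, 12.47 and 12.19 with valproate. Here TGFb1 replicate 4 was not the lowest of its group. The change with acriflavine was -0.73 ± 0.128 (1.65-fold, adjusted p = 0.000454), and -0.78 without both replicates 4.

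SLC38A2, its close relative and a carrier that amino acid shortage is known to induce, had the smallest standard errors of the 8. It read 13.47, 13.60, 13.52 and 13.60 in the control arrays and 13.49, 13.38, 13.48 and 13.41 in the TGFb1 arrays. The acriflavine arrays read 12.55, 12.49 and 12.76 and the valproate arrays 13.35, 13.32 and 13.27. The valproate arrays lay just below all TGFb1 arrays and the acriflavine arrays far below. The change with acriflavine was -0.84 ± 0.0775 (1.79-fold, adjusted p = 2.03e-06), and -0.85 without both replicates 4.

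SLC6A9, the sodium-driven glycine transporter, read 9.92, 9.63, 9.58 and 9.25 in the control arrays and 9.52, 9.58, 9.70 and 8.59 in the TGFb1 arrays. It read 8.42, 8.70 and 8.34 with acriflavine and 8.78, 9.21 and 9.16 with valproate. TGFb1 replicate 4 lay within the acriflavine range. The change with acriflavine was -0.87 ± 0.233 (1.82-fold, adjusted p = 0.00825), and -1.12 (adjusted p = 7.48e-06) without both replicates 4.

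Between acriflavine and TGFb1, the arrays of 5 of the 8 transporters did not overlap, beside 44.1% of all genes tested. The exceptions were SLC3A2, SLC1A5 and SLC6A9. Without both replicates 4, all 8 did not overlap, beside 62.1% of all genes tested. Against control, which received no TGFb1, all 8 fell in the acriflavine arrays, with changes of -0.66 for SLC3A2 to -2.21 for SLC1A4, beside 21.6% of all genes tested that fell, 26.1% that rose and 47.7% that passed in all. All 8 also did not overlap control, beside 58.9% of all genes. The comparisons with TGFb1 and with control share the acriflavine arrays.

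The difference of TGFb1 replicate 4 from the mean of TGFb1 replicates 1 to 3 was -1.25 for SLC7A1, -1.37 for SLC7A5, -0.73 for SLC3A2, -1.68 for SLC1A4, -1.05 for SLC1A5 and -1.01 for SLC6A9. For SLC38A1 it was -0.23 and for SLC38A2 -0.038. The median over the 8 was -1.03, against 0.014 over all genes tested. Control replicate 4 was also below the mean of control replicates 1 to 3 for SLC7A5 (-0.69), SLC1A5 (-0.60), SLC6A9 (-0.46), SLC7A1 (-0.45) and SLC1A4 (-0.41), but not for SLC38A1 or SLC38A2, at 0.043 and 0.075. For SLC3A2 the difference was -0.00060. ATF4 was at 13.11 in TGFb1 replicate 4 and at 13.56 to 13.67 in the other TGFb1 arrays, and at 13.36 in control replicate 4 and 13.53 to 13.54 in the other control arrays. Its part in the low transporter values of the replicates 4 was not tested.

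TGFb1 alone gave no transporter that passed against control. By limma 0 of 8 rose or fell, beside 8.39% of all genes tested that rose, 9.97% that fell and 18.4% that passed in either direction. At an unadjusted p under 0.05 there was 1, SLC38A1, whose change was -0.29 ± 0.119 (adjusted p = 0.116). The mean of TGFb1 was below that of control for all 8, from -0.09 for SLC7A5 to -0.57 for SLC1A4. Within replicates 1 to 3 the differences were much smaller for most, at -0.035 for SLC7A1, 0.077 for SLC7A5, 0.040 for SLC3A2, -0.25 for SLC1A4, -0.086 for SLC1A5 and -0.11 for SLC6A9. For SLC38A1 and SLC38A2 they were -0.22 and -0.076. Between both replicates 4, 1 array each and so with no test, they ran from -0.19 for SLC38A2 to -1.52 for SLC1A4. The arrays of control and TGFb1 overlapped for all 8, while they did not for 18% of all genes tested. Without both replicates 4, 1 of the 8 did not overlap, SLC1A4, beside 42% of all genes. With the replicate number as a block, which for these groups is a pairing, 28.9% of all genes passed and still 0 of the 8.

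With valproate, 0 of 8 transporters passed against TGFb1 by limma, 0 also at an unadjusted p under 0.05, beside 15.1% of all genes tested that rose, 16.2% that fell and 31.3% that passed in either direction. Changes lay between -0.30 for SLC6A9 and 0.29 for SLC1A4. The call depended on TGFb1 replicate 4. Without it, SLC6A9 fell by 0.55 (adjusted p = 0.0118), SLC7A1 by 0.41 (adjusted p = 0.0340) and SLC3A2 by 0.33 (adjusted p = 0.0147), beside 20.1% of all genes tested that fell. Without both replicates 4, 4 fell, the added one being SLC7A5 with -0.33 (adjusted p = 0.00605), beside 23.7% of all genes tested. Only SLC38A2 did not overlap between valproate and TGFb1, 1 of 8, beside 34.6% of all genes. Without TGFb1 replicate 4, SLC7A1, SLC7A5, SLC3A2 and SLC6A9 did not overlap either, 5 of 8 in all, beside 52.3% of all genes.

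Against control, valproate gave a fall in 2 of 8 transporters, beside 19.8% of all genes tested that fell, 16.9% that rose and 36.7% that passed in all. SLC38A1 fell by 0.38 ± 0.128 (adjusted p = 0.0305) and SLC38A2 by 0.23 ± 0.0775 (adjusted p = 0.0298). Both calls were near the threshold. With each array left out in turn, the adjusted p of SLC38A1 ran from 0.0127 to 0.156 and that of SLC38A2 from 0.0203 to 0.106. SLC38A1 did not pass without control replicate 1 (-0.39), control replicate 3 (-0.37), control replicate 4 (-0.37), valproate replicate 1 (-0.28) or valproate replicate 3 (-0.37). SLC38A2 did not pass without control replicate 2 (-0.22), 3 (-0.24) or 4 (-0.21), or without valproate replicate 1 (-0.25), 2 (-0.23) or 3 (-0.21). SLC6A9, at -0.54 (adjusted p = 0.0844), passed without TGFb1 replicate 4, which adds to the shared estimate of the spread (adjusted p = 0.00725), and without control replicate 4 (-0.66, adjusted p = 0.0483). SLC3A2, at -0.28 (adjusted p = 0.183), passed without TGFb1 replicate 4 (adjusted p = 0.0178). Without both replicates 4, 7 of the 8 fell, all but SLC1A5, beside 27.3% of all genes tested. SLC38A1, SLC38A2 and SLC6A9 did not overlap between the groups, 3 of 8, beside 48.4% of all genes. Without control replicate 4, SLC7A1 and SLC7A5 did not overlap either, 5 of 8 in all, beside 60.4% of all genes.

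**Figure D2:**
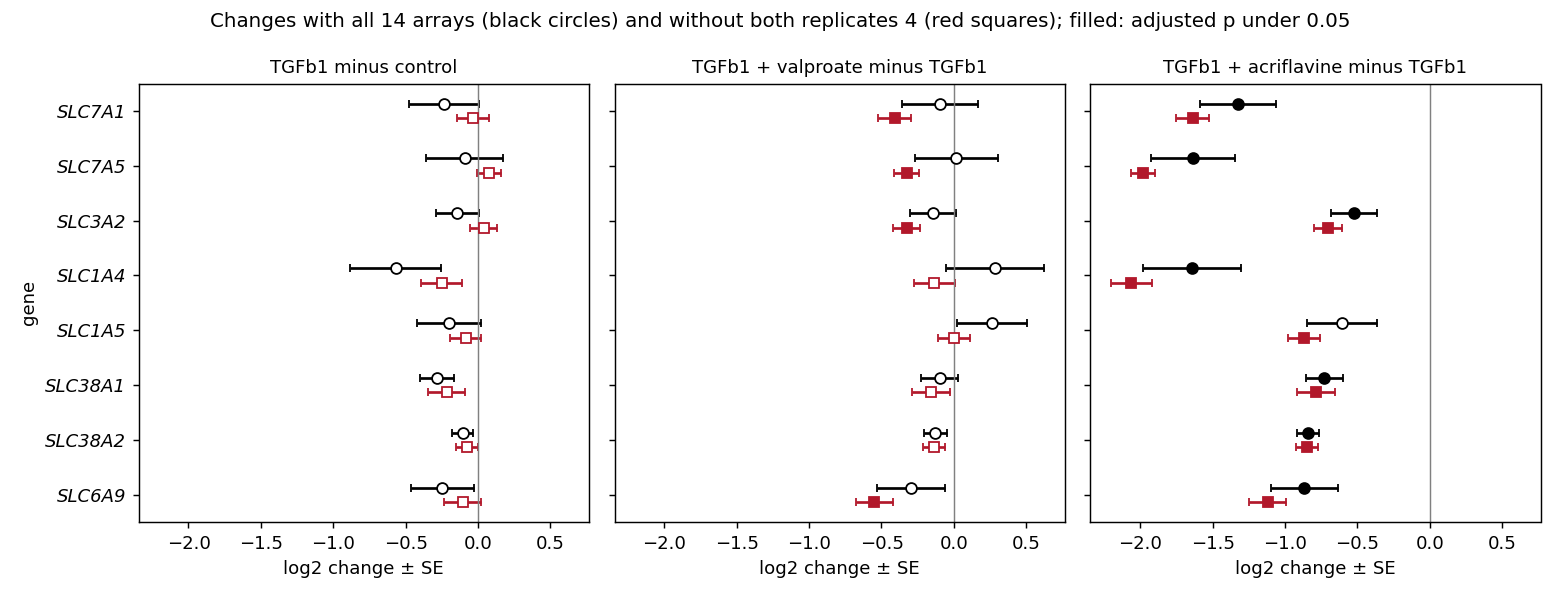
Log2 change ± SE (x axis) of the 8 transporters (y axis) for TGFb1 against control, valproate with TGFb1 against TGFb1 and acriflavine with TGFb1 against TGFb1, with all 14 arrays (black circles) and without both replicates 4 (red squares). Filled symbols passed at an adjusted p of 0.05: 7 and 8 of 8 for acriflavine, 0 and 4 for valproate, and 0 and 0 for TGFb1.

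Acriflavine and valproate, both given with TGFb1 but at different concentrations, were also set against each other directly, without either group that holds a replicate 4. The transporters were lower with acriflavine in all 8 cases, with differences of -0.38 for SLC3A2 to -1.93 for SLC1A4, and no array overlapped, beside 72.3% of all genes whose arrays did not overlap. Of the 8, 6 passed, beside 23.3% of all genes tested that were lower with acriflavine, 28.3% that were higher and 51.5% that passed in all. SLC3A2 (adjusted p = 0.0790) and SLC6A9 (-0.57, adjusted p = 0.0722) did not pass with the spread estimated over all 14 arrays, and did without TGFb1 replicate 4 (adjusted p = 0.00368 and 0.00617). SLC1A5 had a difference of -0.87 (adjusted p = 0.0119) and did not pass without valproate replicate 2, where the change was -0.76 (adjusted p = 0.0519). The largest differences after SLC1A4 were those of SLC7A5, -1.65 (adjusted p = 0.000493), and SLC7A1, -1.23 (adjusted p = 0.00226).

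The order of the 4 group means was control, TGFb1, valproate and acriflavine, from high to low, for SLC7A1, SLC3A2, SLC38A1, SLC38A2 and SLC6A9. For SLC7A5 and SLC1A4, valproate came above TGFb1, and for SLC1A5, valproate came first, followed by control and TGFb1. The acriflavine group was last for all 8. Without TGFb1 replicate 4, valproate was below TGFb1 for SLC7A5 (-0.33) and SLC1A4 (-0.13), and TGFb1 was above control for SLC7A1 (0.076), SLC7A5 (0.25), SLC3A2 (0.040), SLC1A5 (0.063) and SLC6A9 (0.0076). Differences between control and TGFb1, and between TGFb1 and valproate, did not pass for any of the 8 with all 14 arrays.

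The other probe sets of these genes can read other transcripts or other parts of the same one. In a fit over all 26939 probe sets above the same brightness rank, 36 of the 37 were tested, and the 1 left out belonged to SLC6A9. Against TGFb1, 29 of the 36 fell with acriflavine, beside 19.4% of all probe sets. All 4 of SLC7A1 fell (-1.37 to -0.998), both of SLC7A5 (-1.64 and -1.52), all 7 of SLC3A2 (-0.54 to -0.41) and all 6 of SLC1A4 (-1.64 to -0.73). The 3 of SLC1A5 did not pass (-0.60 to -0.51). For SLC38A1, 3 of 5 fell (-0.73 to -0.42), while the others were at -0.30 and -0.18 and did not pass. For SLC6A9, 4 of the 6 tested fell. Against control, 35 of the 36 fell with acriflavine, beside 22% of all probe sets. With valproate, 6 of the 36 fell against control, beside 19.7% of all probe sets. These were 3 of the 5 of SLC38A1 and all 3 of SLC38A2.

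The probe sets of SLC38A2 disagreed on valproate. The brightest (11739000_a_at) had -0.13 against TGFb1, with an adjusted p of 0.268 in this fit. The others fell, by 0.66 (11738999_a_at, adjusted p = 0.00222) and by 0.71 (11747515_a_at, adjusted p = 0.000696). These 2 were the only ones of the 36 to fall in that comparison, beside 15.6% of all probe sets. On 11747515_a_at the valproate arrays read 10.44, 10.46 and 10.52, the TGFb1 arrays 11.35, 11.18, 11.38 and 10.83, the control arrays 11.19, 11.34, 11.18 and 11.18, and the acriflavine arrays 9.44, 9.35 and 9.66. The valproate arrays thus lay between acriflavine and all others, TGFb1 replicate 4 included. The change with acriflavine was also larger on both dimmer probe sets, -1.56 and -1.70, than on the brightest, -0.84.

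**Figure D3:**
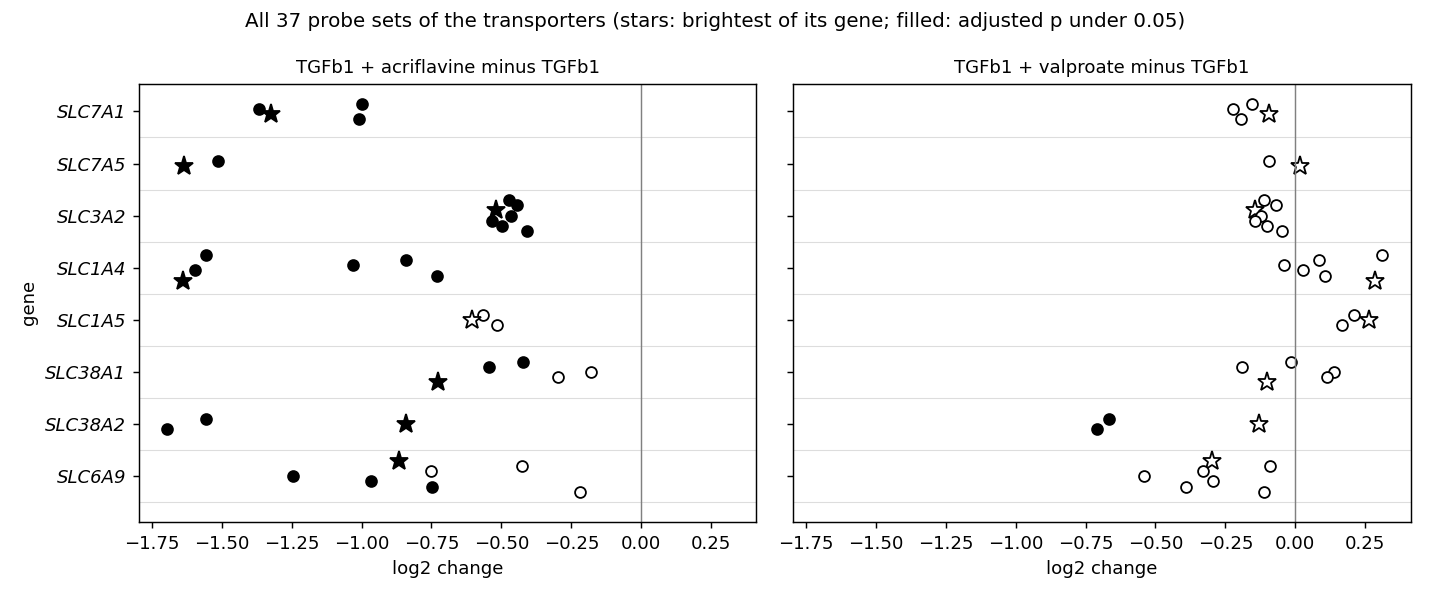
Log2 change (x axis) of each of the 37 probe sets of the 8 transporters (y axis), for acriflavine with TGFb1 and valproate with TGFb1 against TGFb1, with the probe set used for each gene as a star. Filled symbols passed at an adjusted p of 0.05, 29 probe sets in the acriflavine panel and 2, both of SLC38A2, in the valproate panel, and the 1 SLC6A9 probe set below the brightness limit is drawn open without a test.

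Among 39 other amino acid transporters of the plasma membrane, 15 were bright enough to be tested, against all 8 of the genes above. With acriflavine, 6 of the 15 fell against TGFb1, 0 rose and 9 did not pass, beside 19.1% of all genes tested that fell and 24.5% that rose. The median change of the 15 was -0.06. Both this list and the 8 were chosen with earlier results of these data known, so the difference between them is a description. SLC7A11, the light chain that pairs with SLC3A2 to exchange cystine for glutamate, fell by 3.75 ± 0.209 (adjusted p = 2.81e-08), more than any of the 8. SLC36A4 fell by 1.54 and SLC38A10 by 0.68. With valproate, 5 of the 15 rose against TGFb1 and 1 fell, beside 15.1% and 16.2% of all genes. Among those that rose was SLC38A4, by 1.48 ± 0.219 (adjusted p = 0.000182). With TGFb1, 1 of the 15 rose against control, beside 8.39% of all genes, namely SLC7A6, another light chain partner of SLC3A2, by 0.48 ± 0.0978 (adjusted p = 0.00365).

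Of 13 tested carriers of lysosomes and mitochondria, 3 rose and 4 fell with acriflavine against TGFb1, beside 24.5% and 19.1% of all genes. SLC25A44, a mitochondrial carrier of branched-chain amino acids, rose by 0.89 and SLC25A29, a mitochondrial carrier of basic amino acids, by 0.42. SLC25A12 and SLC25A13, the mitochondrial aspartate-glutamate carriers, fell by 0.60 and 0.56, and CTNS, the lysosomal cystine transporter, by 0.49. With valproate, 4 of 13 rose and 2 fell, beside 15.1% and 16.2% of all genes, and here SLC25A12 rose by 0.86 while SLC25A13 fell by 0.41.

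Of 21 regulators of the amino acid response, all tested, 7 rose and 11 fell with acriflavine against TGFb1, beside 24.5% and 19.1% of all genes. ATF4 read 12.45, 12.44 and 12.43 in the acriflavine arrays and 13.11 to 13.67 elsewhere. It fell by 1.04 ± 0.111 (adjusted p = 7.00e-06), and the change was -1.16 without TGFb1 replicate 4. DDIT4, NUPR1 and CHAC1 had changes of -3.50, -2.60 and -2.46, each a fall. ATF5, a related factor, rose by 1.65, CEBPA by 1.57 and PPP1R15A, a phosphatase subunit of the same response, by 0.83, or 0.54 without TGFb1 replicate 4. With TGFb1 and with valproate, ATF4 had changes of -0.0097 against control (adjusted p = 0.962) and -0.012 against TGFb1 (adjusted p = 0.958). Without TGFb1 replicate 4 these were 0.11 (adjusted p = 0.216) and -0.13 (adjusted p = 0.152). With valproate, 2 of the 21 rose and 4 fell, beside 15.1% and 16.2% of all genes, or 4 and 10 without TGFb1 replicate 4, beside 20.4% and 20.1%. ATF5 fell by 1.31 with valproate and rose with acriflavine, while CEBPA rose with both, by 0.83 with valproate.

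Of 35 tested genes of amino acid sensing by mTORC1, 3 rose and 12 fell with acriflavine, beside 24.5% and 19.1% of all genes. SESN2, a leucine sensor, fell by 1.76 and NPRL3, a subunit of the GATOR1 inhibitor complex, by 1.24. MLST8, a subunit of mTORC1, fell by 0.69, while KICS2 rose by 1.28. With valproate, 5 rose and 7 fell against TGFb1, shares near the 15.1% and 16.2% of all genes. RRAGD, a Rag GTPase, rose by 0.91 and LAMTOR3 by 0.54, while ITFG2 fell by 0.96, SESN1 by 0.56 and FLCN by 0.49. With TGFb1, 3 rose and 4 fell against control, near the 8.39% and 9.97% of all genes, or 6 and 7 without TGFb1 replicate 4, beside 12.1% and 16.8%. CASTOR1, an arginine sensor, rose by 0.77, and DEPTOR, an mTOR inhibitor, fell by 1.11. Of 9 tested partners and regulators of the transporter proteins, 2 rose and 4 fell with acriflavine, beside 24.5% and 19.1% of all genes. NEDD4L, a ubiquitin ligase of membrane transporters, rose by 0.95 and LGALS3, a lectin that binds the SLC3A2 glycoprotein, by 0.65. The integrin subunit ITGB3 fell by 1.74 and NEDD4, another ubiquitin ligase of this list, by 0.50.

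**Figure D4:**
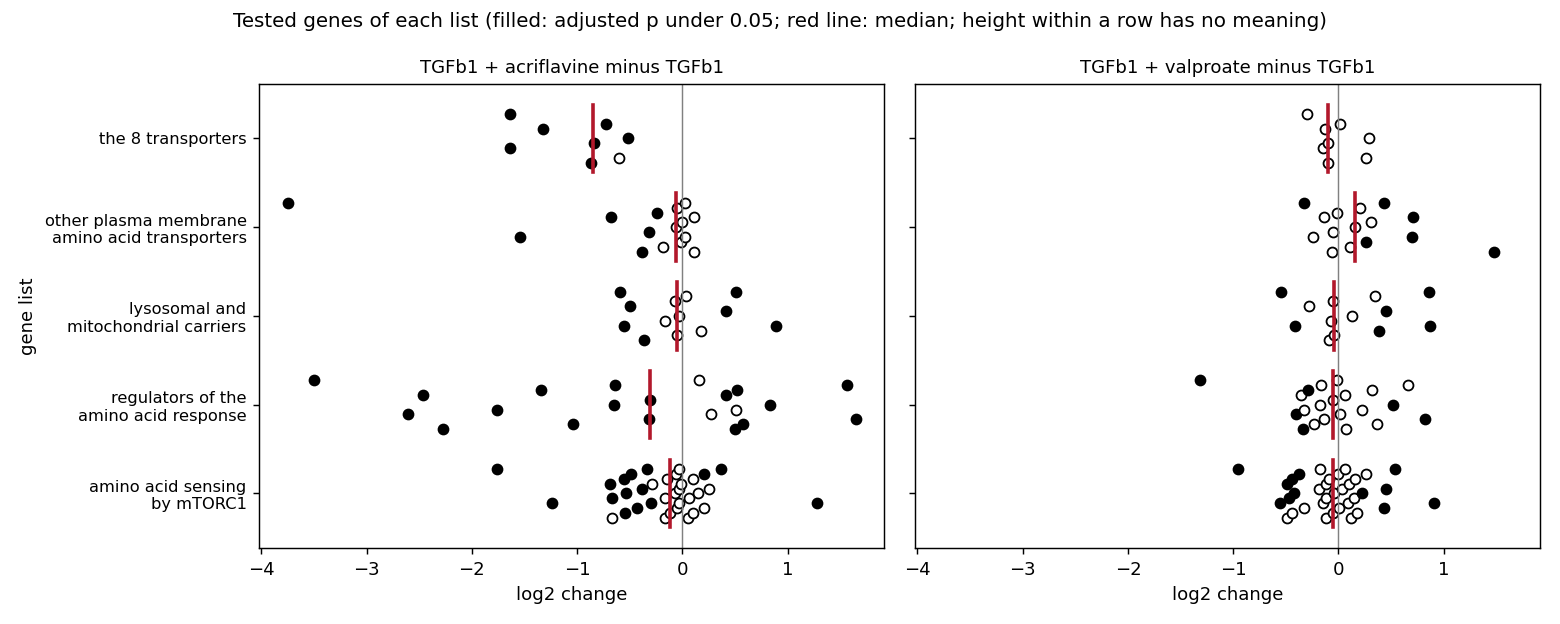
Log2 change (x axis) of each tested gene of 5 lists (y axis) for acriflavine with TGFb1 and valproate with TGFb1 against TGFb1, filled where the adjusted p was below 0.05, with the list median as a red line. The median of the 8 transporters was -0.85 with acriflavine, against -0.06 for the 15 other plasma membrane transporters and 0.03 for all genes tested. The lists were chosen with earlier results of these data known, so differences between them are a description.

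Each transporter was also set against the tested genes outside this set of transporters by its pattern. The measure was the root mean square difference over the 14 arrays after each gene's mean was subtracted. Distances between the transporters of the set are given apart. Nearest to SLC7A1 was SARS1, seryl-tRNA synthetase, at 0.113, followed by TES and AKNA. Nearest to SLC7A5 were PKD1 (0.181), PYCR1, an enzyme of proline synthesis (0.184), and SESN2 (0.187). Nearest to SLC1A4 were STC2 (0.214), NIBAN1 (0.244) and TRIB3 (0.274). Within the set, SLC7A5 lay nearer to SLC1A4 than TRIB3 did, at 0.250. SLC38A1 lay near GFPT1, the entry enzyme of hexosamine synthesis (0.0609), NARS1, asparaginyl-tRNA synthetase (0.0815), and IGF2BP2 (0.107).

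SLC38A2 lay near TJP1, a tight junction protein (0.0797), GRPEL2 (0.0819) and MTR, methionine synthase (0.0993). SLC1A5 lay near MORN4 (0.0856), TP53INP2 (0.109) and EIF1B (0.138), SLC3A2 near PROSER2 (0.0977), TMEM150A (0.106) and ERP29 (0.108), and SLC6A9 near PLRG1 (0.153), C8orf82 (0.162) and H6PD (0.187). Among the 8 themselves, the closest pair was SLC38A1 with SLC38A2 (0.154), followed by SLC7A1 with SLC7A5 (0.187). SLC7A5 and its heavy chain SLC3A2 were among the least alike, at 0.534, since the range of SLC3A2 over the arrays was 0.875 against 2.08 for SLC7A5. These distances describe 14 arrays that share treatments and replicates 4, and small distances are easier to reach for genes that vary little.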

How the data were processed

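The deposited values are log2 intensities of probe sets, made by the authors with RMA in the R package affy 1.44.0, per the submitters' processing notes. Which arrays were normalised together is not given in the sources used here. From 200 ng of RNA per sample, 14 arrays gave 49193 probe sets, of which 44898 named 1 gene, 1825 named several and 2470 none here. A RefSeq table matched 44871 of them by gene identifier and changed 0 symbols.

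For each of 18129 genes the probe set with the highest mean was kept, and the dimmest 40% of genes, 7252, were left out. In R 4.3.3, limma 3.58.1 (lmFit, eBayes) gave each gene a mean per group from 1 model of the 14 arrays, checked on simulated data. The 6 comparisons were adjusted by Benjamini-Hochberg over genes. Figures used matplotlib 3.10.9 in Python 3.11.15. Precision is limited by the small number of arrays.

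The members and gene lists were chosen with earlier results of these data known. A rule named, beside the 8 transporters and ATF4, up to 3 largest rises and 3 largest falls per list for TGFb1 against control and for each compound against TGFb1, and the 3 nearest patterns per transporter. Of the list genes it named, 7 of 15, 23 of 27 and 13 of 20 kept their call with each array left out in turn, and only genes of that kind are given with values. No comparison of the main model was paired, and the labels state no pairing. As an alternative, the replicate number was taken to pair control and TGFb1. The deviations from the group means of their same-numbered arrays correlated over genes at 0.387, 0.359, 0.543 and 0.705. With replicates 1 to 3 alone these correlations were -0.258, 0.151 and 0.589. In the other comparisons not all correlations were over 0.1. Alternatives were other brightness limits, probe set rules, scalings, a trended robust variance model, fits of 2 groups, a replicate block, replicates 4 as a batch, a stricter threshold and arrays left out. Leaving out TGFb1 replicate 2 with both replicates 4 was chosen after seeing the data. Sequence was read from the RefSeq promoter windows alone, and neither protein sequences nor other genome sequence was used here.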

Additional observations from a re-analysis of the deposited data

Results flagged for a closer look

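TGFb1 replicate 4 lay far below the other 3 TGFb1 arrays for 5 of the 8 transporters, by Dixon's test of the gap to the nearest array against the range of the group. Its log2 intensity was 11.24 for SLC7A5, where the other TGFb1 arrays read 12.54 to 12.65, and 11.54 for SLC3A2, where they read 12.21 to 12.35. It was 7.98 for SLC1A4 (others 9.49 to 9.77), 10.39 for SLC1A5 (others 11.37 to 11.49) and 8.59 for SLC6A9 (others 9.52 to 9.70). The gap of SLC3A2 was barely past the critical value of that test. In all, 16 sets of 4 arrays were examined, the control and TGFb1 arrays of each transporter, and these 5 stood out, all by the same array. Chance alone marks about 5% of such sets, and sets that share an array are not independent.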

How the results depend on the processing

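Of 1296 values under alternatives, 1183 kept their direction and side of the threshold, 56 newly passed, 21 no longer passed and 36 changed sign. Those that changed sign were small differences of TGFb1 against control or of valproate, and SLC7A5 without both replicates 4 was the 1 of them that passed in the new direction, also without TGFb1 replicate 2. With acriflavine, 8 of 8 fell against control under every alternative other than an adjusted p of 0.01, which gave 7, and against TGFb1 6 to 8 of 8 fell under all alternatives. Neither scaling shifted an array by more than 0.0623 on the log2 scale. For TGFb1 against control, all genes called were 1997, and 963 in a fit of 2 groups, 3148 with the replicate block, 3547 with replicates 4 as a batch term, 3155 without both replicates 4, 1051 at an adjusted p of 0.01 and 1387 to 3149 with 1 array left out. The batch term let 1 transporter fall, SLC1A4. For valproate against TGFb1, 3402 genes were called, and 2263 in a fit of 2 groups, 5208 without both replicates 4, 2199 at an adjusted p of 0.01 and 5364 without TGFb1 replicate 2 as well. The transporters that fell there, 0, became 1 with the mean of the probe sets, with the replicate block and with the batch term, 4 without both replicates 4, 5 without TGFb1 replicate 2 as well and 0 to 3 with 1 array left out. For valproate against control the 2 became 0 with equal 75th percentiles or an adjusted p of 0.01, 4 in a fit of 2 groups, 6 with the replicate block, 7 with the batch term or without both replicates 4, with or without TGFb1 replicate 2, and 0 to 4 with 1 array left out, while all genes called, 3991, became 6292 without those 3 arrays. The replicate block changed no call of a transporter for TGFb1 against control.

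Signs changed as follows. SLC7A5 for valproate against TGFb1 was 0.016, and -0.038 with the mean of probe sets, -0.010 with equal medians, -0.24 with the replicate block or the batch term, -0.33 without both replicates 4, -0.36 without TGFb1 replicate 2 as well and -0.33 to 0.14 with 1 array left out. SLC1A4 was 0.29, and -0.13 and -0.22 in those fits without arrays and -0.13 to 0.48 with 1 left out. SLC1A5 was 0.26, and -0.033 without the 3 arrays. With 1 left out SLC7A1 ran from -0.41 to 0.041 and SLC38A1 from -0.22 to 0.0029. For valproate against control, SLC1A5 was 0.065, and -0.027 without probe sets ending in _x_at, -0.14 with the replicate block or the batch term, -0.085 without both replicates 4 or the 3 arrays and -0.085 to 0.21 with 1 left out, where SLC7A5 ran from -0.25 to 0.0083. For TGFb1 against control, SLC7A5 was 0.077 and SLC3A2 0.040 without both replicates 4, and SLC7A1 was 0.043 and SLC7A5 0.11 without the 3 arrays. With 1 left out, SLC7A1 ran from -0.37 to 0.076, SLC7A5 from -0.27 to 0.25, SLC3A2 from -0.23 to 0.040, SLC1A5 from -0.35 to 0.063 and SLC6A9 from -0.36 to 0.0076. The causes were not tested.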
